A study of Rattus norvegicus with 20 samples.

Results

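The miRNA rno-miR-877 is described here with all of its 3′ tailed forms, in 20 rats. The tissue was the adBNST, the anterodorsal part of a forebrain nucleus (the bed nucleus of the stria terminalis) tied to anxiety. Every read that the deposited tables assign to rno-miR-877 was taken, which gave 16283 reads of 128 distinct sequences (isomiRs) for this 1 of the 617 miRNAs with reads. The miRNA was selected on these same data, for one of its tailed forms, the reference sequence followed by 2 adenines. In the main fit this was the single isomiR called between socially isolated (SI) and group housed (GH) males, 1 of 10290 isomiRs tested or 0.00972% (edgeR, adjusted p under 0.05). The number called depended on the fit. For instance, it was 28 of 12358 with DESeq2, 39 with only the 2 male groups fitted, and 0 with 2 doubtful labels exchanged (below). The paper, using DESeq2, lists other isomiRs in males and none of miR-877. Because of the selection, every comparison of miR-877 between SI and GH rats below is a description without a test. The question it addresses is whether the miRNA or only one tail on it was missing.

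The rats were outbred Sprague-Dawley males and females. From postnatal day 21, when they left their mothers, SI rats lived alone for 6 weeks, and GH rats lived 3 to a cage with littermates of their own sex. All were tested on the elevated plus maze as adults, at 9 weeks of age, and killed within hours of it. Bilateral punches of the adBNST gave one library per rat, with 5 rats in each of the 4 groups of housing and sex. Each library took 215 ng of RNA, and its cDNA was amplified for 22 PCR cycles. A punch holds all cells of the region, so fewer cells that make a miRNA and less of it per cell cannot be told apart, and which rats were littermates is not in the labels, so the p-values measure the spread between these rats.

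A mirtron is a short intron that folds into a hairpin after splicing, so that the spliceosome and a debranching enzyme do the work that the nuclease DROSHA does for most miRNAs, and DICER then cuts the hairpin as usual. Because the splice sites set the ends of the hairpin, a miRNA on its 5′ arm begins at the first base of the intron. Terminal nucleotidyl transferases add adenines or uridines to the 3′ ends of mature miRNAs and of hairpins, mirtron hairpins among them, and such tails are known to go with changes in stability. The best known mammalian mirtrons are miR-877, in an intron of the ATP-binding cassette gene Abcf1, and miR-1224.

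The hairpin and the mature sequence are shown because the tails are read against them. In RefSeq (GRCr8) the hairpin of miR-877 is 85 nt long and lies at chr20:2816284-2816368 on the plus strand, within the span of Abcf1. Its first and last 2 bases, in capitals in the second line, are the GU and AG of an intron, and the mature miRNA, in capitals in the first line, is its first 20 bases (chr20:2816284-2816303).

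Mir877 hairpin, mature miRNA in capitals: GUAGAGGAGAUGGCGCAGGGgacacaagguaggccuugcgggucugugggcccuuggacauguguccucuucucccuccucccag

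Mir877 hairpin, splice-site bases in capitals: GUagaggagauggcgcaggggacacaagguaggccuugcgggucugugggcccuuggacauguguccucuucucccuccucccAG

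rno-miR-877, seed (bases 2 to 8) in capitals: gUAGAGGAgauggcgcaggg

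rno-miR-1224, seed in capitals: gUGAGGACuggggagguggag

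No other of the 724 mature rat miRNAs in the RefSeq table had the seed of miR-877. The reads themselves are written with T, as in the deposited tables. The following are the forms on which the comparisons turn, with the added bases in capitals. They differ in the base at which the match to the hairpin stops and in the tail, and the third is the form that was selected.

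reference end, no addition: gtagaggagatggcgcaggg

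reference end, A added: gtagaggagatggcgcagggA

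reference end, AA added: gtagaggagatggcgcagggAA

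1 base shorter, AA added: gtagaggagatggcgcaggAA

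2 bases longer, no addition: gtagaggagatggcgcagggga

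2 bases longer, AT added: gtagaggagatggcgcaggggaAT

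3 bases longer, T added: gtagaggagatggcgcaggggacT

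The libraries held 3428930 to 11383055 miRNA reads, and of these 386 to 1907 were miR-877, in 14 to 31 sequences per library. SI male libraries (4661886 to 11383055 reads) were not shallower as a group than GH male libraries (3428930 to 8244720 reads). Brain miRNAs marked the tissue in every library, with miR-124-3p, the main neuronal miRNA, at 6908 to 29715 RPM (reads in 1000000 miRNA reads of the library), whereas the liver, muscle, and blood miRNAs looked at (miR-122-5p, miR-1-3p, miR-133a-3p, miR-451-5p, and miR-144-3p) each had at most 33.3. In 1 SI male (number 20) miR-204-5p, which the choroid plexus makes in abundance, reached 16843 RPM against 767 to 6570 in the other 19 rats, and this rat's miR-877 (98.3 RPM) was the lowest of its group. The other miRNAs looked at for choroid plexus or epithelium did not rise with it. The sum with miR-200a-3p and miR-200b-3p was 16844 RPM in this rat, and these had at most 2.72 and 25.3 RPM in any library. The labels of the 2 SI rats numbered 17 give one male and one female, and the names of their files give the opposite sexes. The labels were followed, and results that rest on these libraries are given both ways.

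The levels of miR-877 overlapped between the groups. In RPM, GH males 16, 18, 19, 20, and 21 had 136, 112, 137, 70.2, and 104. SI males 15, 17, 19, 20, and 22 had 128, 262, 130, 98.3, and 105. In RPM, SI male 17 stood above all other rats, and the remaining SI males lay inside the range of the GH males.

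In females, GH rats 12, 13, 15, 16, and 17 had 116, 95.9, 142, 89.9, and 107 RPM. SI females 10, 12, 14, 16, and 17 had 80.2, 125, 161, 220, and 82.0. In RPM, 2 SI females lay above and 2 below all GH females. TMM normalization, which also allows for the composition of each library, moved these orders. In normalized counts 3 SI males lay above all GH males, 2 SI females lay above and 0 below all GH females, and the highest rat was SI female 16 and not SI male 17.

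**Figure D1:**
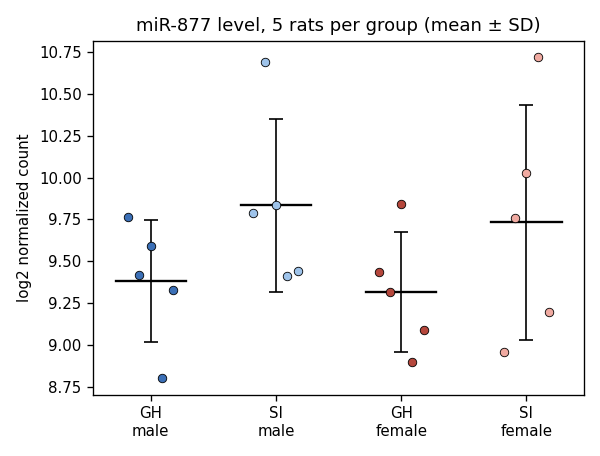
Level of miR-877 in each rat as the log2 of its normalized count (y axis) by group (x axis); points are rats, lines and bars are the mean ± SD. The groups overlap, and the highest rat of each SI group lies near 10.7.

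On the log2 scale of normalized counts the mean was 9.83 ± 0.52 (SD, n = 5) in SI males, 9.73 ± 0.70 in SI females, 9.38 ± 0.36 in GH males, and 9.32 ± 0.36 in GH females. Neighbours in this order differed by less than the SD of either group. As a description, the fitted difference between SI and GH rats was 0.50 (SE 0.32) in males and 0.52 (SE 0.32) in females on the log2 scale, in the direction of more miR-877 in SI rats. With the 2 libraries numbered 17 exchanged, it was 0.14 in males and 0.82 in females. Without SI male 17 the difference was 0.22 in males, and without SI female 16 it was 0.23 in females.

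Housing did not enter the comparison of GH females with GH males, which was tested. The log2 fold change of miR-877 (GH females against GH males) was -0.06 (SE 0.32), and it did not pass the test (edgeR quasi-likelihood, adjusted p = 0.996). No miRNA of the 500 tested passed in this comparison, 0%, although 12 had an unadjusted p under 0.05. DESeq2 called 3 of the 586 miRNAs it tested, none of which was miR-877. The paper, using DESeq2, reports only rno-miR-3084a/b/d in this comparison.

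A tail was about as common on miR-877 as none. No addition was listed for 49.2% of the 16283 reads. Reads with only adenine added made up 29.7%, reads with adenine and thymine 10.5%, reads with only thymine 8.03%, and reads whose tail held guanine or cytosine 2.65%. By addition, A had 2217 reads, AA 1469, T 1162, AAA 1146, AT 597, AAT 413, TAA 216, TA 140, and TAT 119, which with the unadded reads are the 10 classes with at least 10 reads in at least 5 libraries. The remaining 18 additions summed to 794 reads, and none was listed in more than 7 libraries.

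The tables list at most 3 added bases. Longer tails can appear there as a mismatch next to the addition. Counting a mismatch as tail where at most 1 matched base lay between it and the addition gave 476 reads with a tail of 4 or 5 nt. All of these reads already had an addition, so the share of tailed reads stayed the same.

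**Figure D2:**
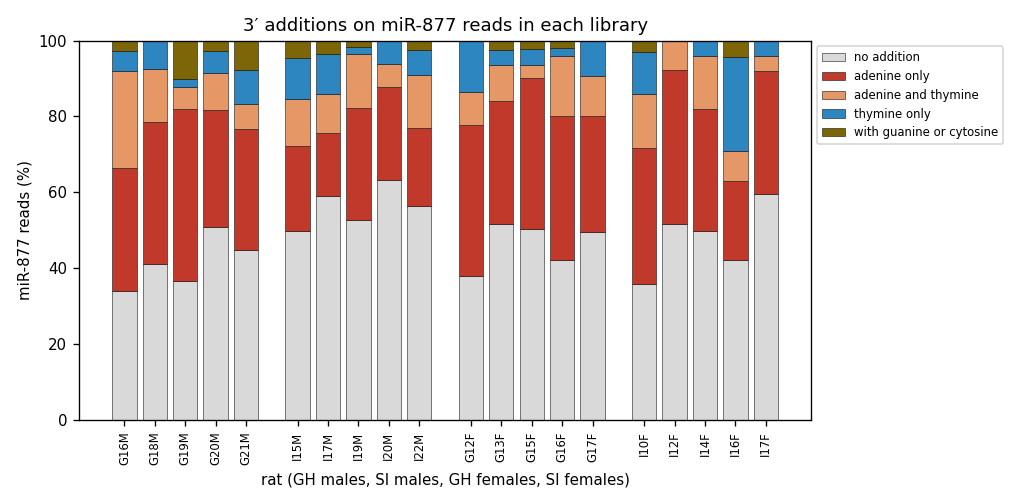
Percent of miR-877 reads (y axis) by the bases added at the 3′ end, in each of the 20 libraries (x axis, rats labelled G for group housed or I for isolated, with their number and sex). Adenine-only tails make up 16.6% to 29.4% in SI males and 30.9% to 45.3% in GH males.

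Tails followed several ends of the miRNA. The match to the hairpin stopped at the reference end in 32.4% of reads, 1 base short of it in 20.3%, 3 bases past it in 14.3%, 1 base past it in 7.58%, and 2 bases short of it in 5.33%, and 3256 reads stopped 2 bases past it. The tailed share was largest on the short ends. It was 85.5% on the end 2 bases short and 71.6% on the end 1 base short, against 49.4% at the reference end and 12.1%, 49.0%, and 34.3% on the ends 1, 2, and 3 bases long. The kind of tail moved as well, with only thymine on 27.8% of the reads 3 bases long and on 2.48% of those 1 base short. The hairpin bears on what can be listed. Its next bases after the mature miRNA are gaca, so an adenine added 1 base past the reference end has the letter of the hairpin and is listed as a longer match. An adenine added 3 bases past it also has the letter of the hairpin, and the tables list no match more than 3 bases past a reference end. No adenine-only tail was listed on either of these ends.

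**Figure D3:**
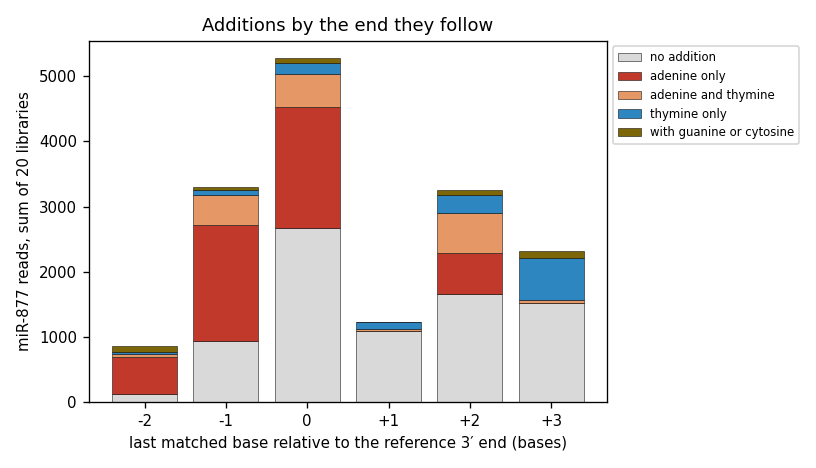
Reads of miR-877 summed over the 20 libraries (y axis) by the last base that matches the hairpin, counted from the reference 3′ end (x axis), and by the kind of addition (colors). Adenine-only tails fill most of the shorter ends, and no adenine-only tail is listed at 1 or 3 bases past the reference end.

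Among the reads that could be listed, the 5′ end was nearly fixed. Of the 16283 reads, 16142 began at the first base of the hairpin, 141 began at the second, and none began later. Only reads named for the miRNA of the 5′ arm were taken, so reads of the 3′ arm could not be counted. Per library, 98.9% ± 2.19 (SD, n = 20) of miR-877 reads had the reference 5′ end, against 94.4% ± 0.77 of the reads of all other miRNAs. The difference within libraries was 4.44 percentage points (SD 2.30, n = 20), higher for miR-877 in 19 of 20 libraries (permutation of signs, two-sided, p = 4e-05, adjusted over 4 comparisons 8e-05). The exception was SI male 22, with 90.8%. The hairpin has no bases before the mature miRNA, so earlier bases in a read had nothing to match. A longer 5′ end could thus not be listed for miR-877, whereas it can be listed where a hairpin has such bases. The part of this in the difference was not tested. A share this high was not particular to miR-877, which ranked 71st of the 500 miRNAs tested, where the median was 96.0%. miR-484, which is not on the mirtron list, was higher, at 99.7%. For miR-1224, the other conserved mirtron, the share was 99.0% ± 1.13, and the difference of miR-877 from it was -0.10 points (SD 2.74, higher in 9 of 20 libraries), which did not pass (permutation p = 0.90, adjusted 0.90).

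Tails were more frequent on miR-877 than on other miRNAs. Per library, 52.0% ± 8.40 (SD, n = 20) of miR-877 reads carried an addition, against 42.8% ± 4.29 of the reads of miR-1224 and 15.3% ± 0.70 of the reads of all other miRNAs. The difference from all other miRNAs was 36.7 points (SD 8.69), with miR-877 higher in 20 of 20 libraries (permutation p = 2e-05, the smallest that 100000 resamples allow, adjusted 8e-05). The difference from miR-1224 was 9.22 points (SD 10.5), with miR-877 higher in 17 of 20 libraries (permutation p = 0.001, adjusted 0.0014). By group it was 16.3 points in GH males, 10.7 in GH females, and 10.2 in SI females, and in SI males it was -0.37 points (SD 4.90, n = 5), with miR-877 higher in 3 of 5. Whether the groups differed in this was not tested, since the housing comparison of the males chose one of its tailed forms. The tailed share of miR-877 holds that form, and the p-values do not allow for the choice of a miRNA through a tailed form. With its reads left out, the mean tailed share was 55.9% in GH males, 50.9% in GH females, 49.0% in SI females, and 43.7% in SI males. No test was made without it. Among the 500 miRNAs tested, miR-877 was 53rd from the top in its tailed share and 14th in its adenine-only share (31.7% on average, against a median of 5.91% over the 500).

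**Figure D4:**
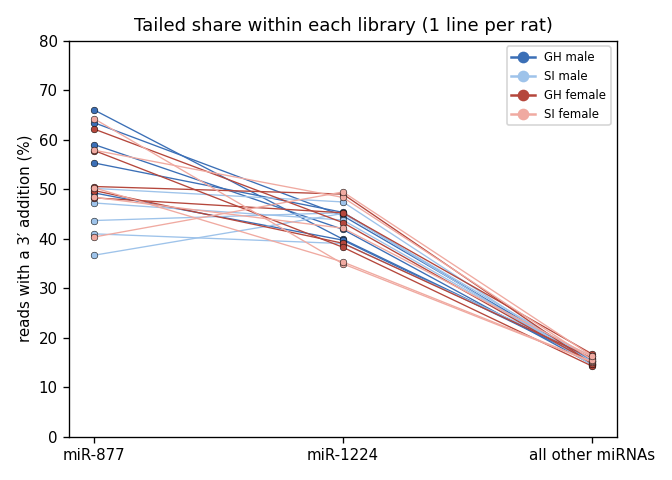
Percent of reads with a 3′ addition (y axis) for miR-877, miR-1224, and all other miRNAs (x axis), with 1 line for each of the 20 rats, colored by group. All other miRNAs together lie between 14.3% and 16.7% in every library, below miR-877 in each.

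Other miRNAs made without DROSHA were tailed in other ways. The 3′ arm of miR-702, which is also listed as a mirtron, had an addition on 53.2% ± 4.72 of its reads (SD, n = 20), of which most were thymine only (47.1%), and adenine only was on 4.75%. miR-320-3p, whose hairpin is the capped 5′ end of a transcript, had an addition on 42.0% ± 1.75 of its reads, with thymine only on 33.0% and adenine only on 0.89%. miR-484, which is also made without DROSHA, had one on 37.5% ± 22.9. The 5′ arm of miR-702 was too rare to be read, with reads in 14 of 20 libraries. In SI against GH males, where 4% of the 500 miRNAs passed the test, and in SI against GH females, where 0.4% did, none of these 5 miRNAs passed (edgeR adjusted p of 0.12 or more in males and 0.084 or more in females). miR-320-3p came nearest in both sexes, with a log2 fold change of 0.62 (SE 0.24, adjusted p = 0.12) in males and 0.83 (SE 0.24, adjusted p = 0.084) in females (edgeR). The number of miRNAs called in these comparisons depended on the fit. DESeq2 called 52 of 362 in males and 67 of 374 in females. With only the 2 groups compared in the fit, edgeR called 89 of 500 in males and 0 of 500 in females.

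The selected form, with AA at the reference end, was listed in each GH rat and each SI female and in no SI male. GH males 16, 18, 19, 20, and 21 had 87, 30, 11, 24, and 37 reads of it. No SI male had any listed. The tables list sequences of at least 2 reads, so the form had fewer than 2 reads in each SI male, which is under 0.18 to 0.43 RPM, whereas the lowest GH male had 2.91. No fold change is given against a group without reads.

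In females the form was present throughout. GH females 12, 13, 15, 16, and 17 had 34, 11, 132, 32, and 7 reads, and SI females 10, 12, 14, 16, and 17 had 37, 87, 27, 99, and 32. In RPM the mean was 7.25 ± 6.06 (SD, n = 5) in GH males, 6.53 ± 5.75 in GH females, and 8.33 ± 5.36 in SI females. These groups overlapped widely. Of the 10290 isomiRs tested, 19 or 0.185% were listed in all GH males and in no SI male, and 1 or 0.00972% in all SI males and in no GH male. Among the 3379 isomiRs whose total over the 20 libraries was within 2-fold of the 687 reads of this form, 2 had the first pattern.

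The absence rested on the label of 1 rat. The SI female numbered 17, whose file carries the name of a male, had 32 reads of the form, so that with the 2 libraries exchanged 1 of 5 SI males would have it. The form would then not have been selected. It was not selected either in a fit with a term for the animal number. That fit kept only the 2 pairs of same-numbered males and called 0 of the 10290 isomiRs, so it says little about this form.

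The other forms at the same end were not missing from SI males. The unadded reference sequence had 94, 548, 141, 121, and 69 reads in SI males 15, 17, 19, 20, and 22, and 74, 15, 103, 159, and 110 in GH males 16, 18, 19, 20, and 21. These ranges overlapped. With a single A at the reference end, SI males 17, 19, and 20 had 44, 114, and 21 reads and SI males 15 and 22 had none listed, and the 5 GH males had 35, 12, 124, 24, and 18. With AAA at this end, 2 SI males and 2 GH males had reads.

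Nor was the AA tail missing from SI males on the end 1 base shorter. On the end 1 base shorter, AA had 99, 51, 2, 21, and 33 reads in SI males 15, 17, 19, 20, and 22, and 19, 31, 0, 9, and 46 in GH males 16, 18, 19, 20, and 21. All 5 SI males thus had reads with this tail and this end. On the end 2 bases longer, AA was listed in 1 SI male, with 27 reads, and in 5 GH males, with 2 to 19 reads. A single A on this longer end was listed in 2 SI males, with 45 and 7 reads, and in 5 GH males, with 13 to 41. Summed over all ends, AA was on 99, 51, 29, 24, and 33 reads in SI males and on 125, 65, 19, 41, and 85 in GH males, and the groups overlapped.

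**Figure D5:**
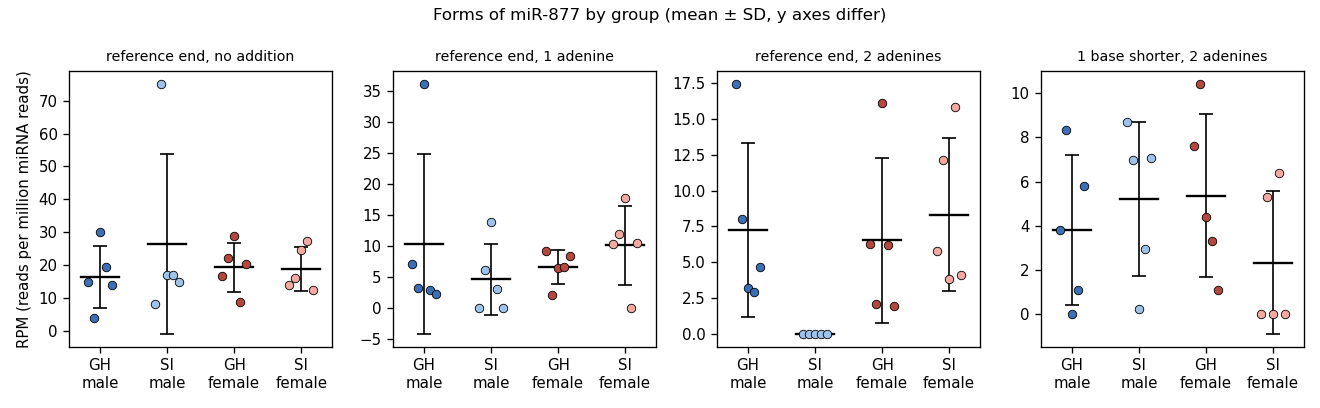
RPM (y axes, which differ) of 4 forms of miR-877 by group (x axes); points are rats, lines and bars are the mean ± SD. The form with 2 adenines at the reference end is at 0 in each SI male, and the same tail on the end 1 base shorter is not.

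On other miRNAs, AA tails had about the same share in SI as in GH males. Of all reads of other miRNAs, AA was on 1.21% ± 0.11 (SD, n = 5) in SI males, 1.21% ± 0.08 in GH males, 1.29% ± 0.10 in SI females, and 1.15% ± 0.18 in GH females. Over the 444 isomiRs of other miRNAs with AA and no mismatch, the median log2 fold change of SI against GH males was -0.13, and 246 were lower and 198 higher in SI males. Over all 10290 isomiRs the median was -0.05, with 5378 lower.

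By tail, the fitted log2 difference of SI against GH males was 0.81 (SE 0.30) for the reads without an addition. In log2 normalized counts these averaged 8.93 in SI males and 8.19 in GH males, and all 5 SI males lay above all 5 GH males, as for 37 or 1.23% of the 3016 sums of a miRNA and an addition tested. It was -1.14 (SE 0.62) for AA, -0.28 (SE 0.51) for A, 0.10 (SE 0.89) for AAA, 1.08 (SE 1.14) for T, and 1.06 (SE 1.26) for AT. The rarer classes had -1.80 (SE 2.08) for TA, -1.43 for TAT (with an SE about as large as for TA), 0.33 (SE 1.70) for AAT, and 0.28 (SE 1.82) for TAA. Of the 10 classes, 4 were lower in SI males and 6 were higher. In females, the difference was 0.27 (SE 0.30) without an addition, 0.57 (SE 0.51) for A, -0.43 (SE 0.61) for AA, -0.60 (SE 0.90) for AAA, 1.24 (SE 1.14) for T, and 0.76 (SE 1.26) for AT. Of the 10 classes, 5 were lower in SI females. Single rats turned several of these signs. In males, A was 0.32 without GH male 19, AAA was -0.37 without SI male 17 and -0.0733 without GH male 16, and TAT was 1.61 without GH male 16. In females, T was -0.74 without SI female 16, and AA was 0.0063 without GH female 15. For each class with a tail, in either sex, the ranges of SI and GH rats overlapped.

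The mean share of miR-877 reads with a tail was lower in SI than in GH males. In percent, GH males 16, 18, 19, 20, and 21 had 66.0, 59.0, 63.4, 49.2, and 55.3, and SI males 15, 17, 19, 20, and 22 had 50.1, 41.0, 47.2, 36.6, and 43.6. The highest SI male lay above the lowest GH male, and otherwise the groups did not overlap. The means were 58.6% ± 6.65 and 43.7% ± 5.27 (SD, n = 5 each), a difference of -14.9 points. Most of it was in tails of adenine only, which were on 32.4%, 37.6%, 45.3%, 30.9%, and 32.0% of reads in GH males and on 22.3%, 16.6%, 29.4%, 24.3%, and 20.7% in SI males. All SI males lay below all GH males in this share, as for 6 or 1.90% of the 315 tested miRNAs with reads in every library. The mean difference was -13.0 points. These shares hold the selected form, so they are drawn in part from the values that chose the miRNA. With the reads of that form left out, the adenine-only share was 22.5% to 44.0% in GH males and 16.6% to 29.4% in SI males, the groups overlapped, and the difference was -8.56 points, and for any tail it was -12.2 points. With the 2 libraries numbered 17 exchanged, the differences were -15.0 and -9.89 points, and the groups overlapped in the adenine-only share, since SI female 17 had 32.2%. Thymine-only tails were on 7.22% ± 3.65 of reads in SI males and 5.98% ± 2.49 in GH males. All these shares count the unadded form 2 bases past the reference end as untailed. An adenine added 1 base past that end would be listed as this same form. It had 221, 169, 227, 155, and 40 reads in SI males 15, 17, 19, 20, and 22. In GH males 16, 18, 19, 20, and 21 it had 41, 44, 27, 22, and 67. The part of such reads in the lower tailed shares of SI males was not tested.

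In females the shares of the housing groups overlapped. A tail was on 52.2% ± 9.17 (SD, n = 5) of reads in SI females and 53.7% ± 5.99 in GH females, and adenine only on 32.3% ± 7.29 and 36.1% ± 4.37. SI female 16 stood apart in the kind of tail, with thymine only on 24.9% of its reads against 0% to 11.1% in the other SI females. The lowest fitted difference among the tailed forms of females was for AAT at the reference end, which was listed in 1 GH female, with 23 reads, and in no SI female.

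Between GH females and GH males, where the shares could be tested, the difference was -4.90 points for any tail, 0.48 points for adenine only, and 0.61 points for thymine only. None passed (exact permutation test, two-sided, 5 against 5, p = 0.25, 0.80, and 0.82, each adjusted over the 3 shares 0.74 or more, with 0.0079 the smallest p possible). None of the 10 classes passed either (edgeR adjusted p = 0.99995 for each). Of all 3016 sums tested none passed, 0%, with 63 at an unadjusted p under 0.05, and DESeq2 called 0 of the 7766 it tested. None of the 17 forms of miR-877 passed among the 10290 isomiRs, of which 0% were called, with 171 at an unadjusted p under 0.05. DESeq2 called 12 of the 35129 isomiRs it tested. At 5 rats a group the fitted differences of single tailed forms had SEs of 0.70 to 2.36 on the log2 scale, so that a doubling of one form was not detectable.

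Few forms recurred. Of the 128 isomiRs, 79 were listed in 1 library only, 3 were listed in all 20 (the unadded sequences at the reference end and at 2 and 3 bases past it), and 17 passed the filter, 12 of them tailed, which held 81.8% of the reads. Of these 17, all SI males were below all GH males in 1, the selected form, against 3.29% of the isomiRs tested. A form could be absent in one rat and common in another of the same group, as for AAA on the end 1 base shorter, with 177 reads in SI male 17 and none listed in SI males 15 and 22, or T on the end 3 bases longer, which was listed in 11 of 20 libraries. In SI males 15 and 17 and SI female 16, the number of sequences of all miRNAs did not fall steadily with their read count but rose again, to a second peak at 31, 43, and 43 reads per sequence. In these 3 rats the median miR-877 sequence had 47, 57.5, and 63.5 reads, against 7 to 47 in the other 17 rats. The part of this clumping in the absence of the selected form was not tested.

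The miRNAs whose log2 normalized counts were most like those of miR-877 over the 20 libraries were miR-664-2-5p (Pearson r = 0.87), miR-323-5p (0.81), miR-125b-1-3p (0.80), miR-485-3p (0.80), and miR-760-3p (0.78). miR-1224 was 10th of the 494 miRNAs with distinct counts (r = 0.75), and miR-702-3p was 56th (r = 0.53). The miRNA least like it was miR-195-5p (r = -0.88). The 20 points of each correlation share their libraries and the normalization, and no test was made.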

How the data were processed

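Small RNA of adBNST punches from 20 rats was sequenced. Per the methods, the authors trimmed adapters and polyA with cutadapt, which can shorten long adenine tails, and aligned reads to rat miRBase v21 hairpins with seqbuster. The deposited tables hold raw counts of reads for each distinct sequence (at least 2 reads), with its miRNA, mismatch, 3′ addition (at most 3 nt), and end differences.

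Counts were summed per rat by miRNA, by miRNA and addition, and by isomiR, and features reaching 10 counts in 5 or more libraries (500, 3016, and 10290) were fitted with TMM and edgeR's quasi-likelihood F test (edgeR 4.0.16, R 4.3.3, 4 groups in 1 model, Benjamini-Hochberg over all features, threshold 0.05), checked on simulated counts. Standard errors come from the fold change and F. Shares are percents of a library's miR-877 reads, compared with exact permutation tests or with 100000 sign permutations (scipy 1.17.1, numpy 2.4.6, pandas 2.3.3, Python 3.11.15). Depth was 3428930 to 11383055 miRNA reads per library. Reads carry no molecular identifiers, so counting error does not cover amplification.

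Forms named are the selected form, the classes past the filter, their leading isomiRs, the lowest fitted tailed isomiR in each sex, the mirtrons miR-1224 and miR-702, the capped miR-320-3p and miR-484, and the 5 miRNAs most like miR-877 with the 1 least like it. The members and all lists were chosen with earlier results of these data known. Groups come from the labels. Some animal numbers are shared by an SI and a GH rat of one sex (2 pairs of males, 3 of females), but correlations of paired deviations ran from -0.30 to 0.09, so the numbers were taken only as names. Alternatives were DESeq2 1.42.0 (its size factors and its Wald test), other filters, only the groups compared, the number 17 libraries exchanged, reads of 1 miRNA, reads without a mismatch, sequences with at least 10 reads, the replicate block, and each rat left out. Tails read anew against the hairpin, and the count of SI males with the selected form under 2 settings, were added after seeing the data.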

Additional observations from a re-analysis of the deposited data

Results flagged for a closer look

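Within groups of 5 rats, 44 sets of values of miR-877 were searched for a rat far from the rest of its group, and 7 were found. Chance flags about 1 in 20 such sets where the values are normally distributed. Shares near their ceiling and small counts are not, so the rate for these sets is not known.

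The share of reads at the reference 5′ end was 90.8% in SI male 22 against 98.1% to 100% in the other SI males, and 97.9% in SI female 12 against 100% in the other SI females. The level of unadded miR-877 (log2 normalized count) was 7.94 in GH male 20 against 8.22 to 8.31 in the other GH males, and 9.73 in SI male 17 against 8.61 to 8.89 in the other SI males. The level of miR-877 with AAA was 1.10 in SI male 15 against 5.49 to 7.07 in the other SI males, and 0 (none listed) in SI female 16 against 4.79 to 6.39 in the other SI females. The AA form at the reference end had 132 reads in GH female 15 against 7 to 34 in the other GH females.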

How the results depend on the processing

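The fitted difference in miR-877 between GH females and GH males reversed without GH male 16 (0.0415), GH female 16 (0.0341), or GH female 17 (0.0649), and ranged from -0.215 to 0.0649 when each rat was left out. It did not pass the test in any setting. The difference in the adenine-only share of these groups was -0.0941 points with reads without a mismatch, and reversed without GH male 16 (-0.34), 20 (-0.71), or 21 (-0.44), or GH female 12 (-0.48) or 15 (-0.45), with a range of -0.71 to 2.89 over the rats left out. That in the thymine-only share reversed without GH male 19 (-0.30), GH female 12 (-1.12), or GH female 17 (-0.0767), with a range of -1.12 to 1.71. The difference in 5′ end share from miR-1224 reversed without GH male 16 (0.0272), SI male 22 (0.38), or SI female 12 (0.007), with a range of -0.32 to 0.38. None of these passed a test in either direction, so their sign is not determined, and the cause was not tested.

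With at least 10 counts in every library fewer classes could be fitted, and 2 were lower in SI males and 1 in SI females. With the 2 libraries numbered 17 exchanged, 1 SI male had the selected form. Left out in turn, the rats gave SI minus GH differences in miR-877 of 0.22 to 0.60 in males and 0.23 to 0.69 in females, and in its tailed share of -17.2 to -13.0 points in males and -4.48 to 1.49 points in females. The fit with the replicate block kept only same-numbered rats, 2 pairs of males and 3 of females, so its values rest on few rats. In it the differences in miR-877 were 0.47 in males and 0.78 in females, and 4 and 7 of the 10 classes were lower. Among females the A, AA, T, and AT differences changed sign, to -0.0033, 0.35, -1.44, and -0.15. Among males those of AAA and TAT did, to -0.0229 and 3.41. The selected form was not called. The tailed share of miR-877, which holds the selected form, stayed higher on average than that of other miRNAs whichever rat was left out. The mean difference was 8.16 to 10.2 points from miR-1224 and 36.0 to 37.5 points from all other miRNAs. With all rats, miR-877 was above miR-1224 in 17 of 20 libraries, and the mean difference in SI males was -0.37 points. The depth of 386 to 1907 reads per library leaves few reads for a form of 1 tail and 1 end.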
